A study of Rattus norvegicus with 5 samples.

Results

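This account sets 1 rat ovary treated with platelet-rich plasma (PRP) after the milder cisplatin schedule against 1 ovary given that schedule alone. They are 2 of the 5 sequencing libraries in the series, found by their treatment labels, and each stands alone for its group of 6 animals. All rats were young adult Sprague Dawley females aged 10 to 12 weeks. The reference ovary came from the group labelled Cisplatin 3 times, which received 3 weekly intraperitoneal doses of 3 mg/kg. The ovary labelled Cisplatin 3 times and PRP had the same doses, and then PRP into the ovary 1 week after the last of them. That PRP was prepared from blood of donor rats, was delivered by laparotomy, was followed by 3 days of antibiotics, and the ovary was taken 2 weeks later. The 3 libraries outside the contrast came from a saline control with 5 injections, from a group given cisplatin 5 times and from a group given cisplatin 5 times and PRP. Surgery and antibiotics went with PRP, so their parts in any difference cannot be told apart from that of PRP. The sources used here give no separate time of collection for ovaries treated with cisplatin only.

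Cisplatin binds DNA and forms crosslinks that dividing cells tolerate poorly, and in the ovary it damages follicles, the units in which an oocyte is surrounded by granulosa and theca cells. Loss of follicles before the normal age is the basis of premature ovarian insufficiency, the condition that these rats model. Platelets store growth factors in their granules, among them platelet-derived growth factor, transforming growth factor beta and vascular endothelial growth factor, and release them when activated. The question for this comparison was how the ovarian transcriptome after PRP differed from that after cisplatin alone.

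The deposited tables name transcripts only by running numbers, and 0 of the 299341 numbers listed in any library were found in the reference gene table used here. The results therefore describe transcripts by level, length and behaviour in the other ovaries, and not by gene, pathway or cell type. For the same reason the ovarian origin of the libraries could not be checked against marker genes, and no sequence can be shown. With 1 library per group no spread between animals is known, nothing was tested, and each statement compares these libraries only. In bulk tissue, fewer cells of a type and less RNA per cell cannot be told apart.

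The libraries were of nearly the same depth, with a total estimated count of 30742959 for cisplatin alone and 30453901 with PRP. Their fragment lengths differed, at 186 bases for cisplatin alone and 217 bases with PRP. Across the 5 libraries the totals ran from 26383246 to 31822055 and fragment lengths from 186 to 229.9 bases. The part that fragment length plays in the differences described here was not tested in libraries of equal fragment length.

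Levels were measured in TPM, a relative abundance corrected for length that sums to 1000000 in each library. A transcript was compared when the larger of its 2 values was 5 TPM or more, and its difference is that of log2(TPM + 1), which understates the change of low transcripts. It was counted as higher or lower with PRP from a 2-fold difference on that scale. Of 21359 transcripts, 3240 (15.2%) were higher with PRP and 2715 (12.7%) were lower. The higher transcripts had a median level of 2.37 TPM with cisplatin alone and 10.1 TPM with PRP, and the lower ones 15.1 and 2.90 TPM. The median difference over all transcripts compared was 0.077, and the central 50% of transcripts, from the 25th to the 75th percentile, lay between -0.45 and 0.60. Most transcripts were thus within 2-fold. The 2715 lower transcripts carried 18.5% of all TPM with cisplatin alone and 4.93% with PRP, while the 3240 higher ones carried 2.75% and 12.4%.

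Median-of-ratios scaling over the 171598 transcripts listed in both libraries gave another balance. It lowered the PRP values relative to those with cisplatin alone by a further factor of 2.08 and moved the median difference to -0.997. Of 22018 transcripts then compared, 872 were higher and 10972 lower, so that 7.36% of those counted were higher against 54.4% here. The transcripts that set this factor were mostly low, with a median of 3.03 estimated counts with cisplatin alone and 8 with PRP. Scaled instead on the 20601 of them that reached 5 TPM, the factor was 1.06, with 2876 higher and 3003 lower. Directions below are relative to equal TPM totals.

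Scarce transcripts made up a larger share of the PRP library. To avoid sorting transcripts by the 2 values compared, levels were taken from the mean of the 3 libraries outside the contrast. Transcripts listed in none of the 3 made up 0.320% of TPM with cisplatin alone and 0.973% with PRP, a ratio of 3.04. Those with a mean above 0 and under 0.1 TPM made up 0.533% and 1.98%, a ratio of 3.71. Those from 0.1 to 1 TPM made up 3.46% and 9.19%, a ratio of 2.66. The ratio was 1.47 from 1 to 5 TPM, 1.05 from 5 to 10 TPM and 0.976 from 10 to 100 TPM. The 1471 transcripts at 100 TPM or more made up 55.5% of TPM with cisplatin alone and 45.6% with PRP, a ratio of 0.822. From 0.1 TPM upward the ratio was thus lower in each higher class, and the 2 libraries were nearly level between 5 and 100 TPM.

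**Figure D1:**
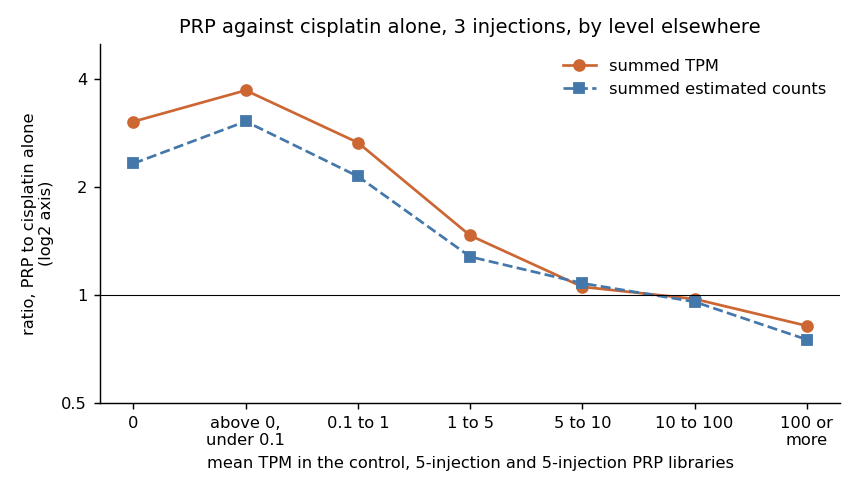
Ratio of the PRP library to the library with cisplatin alone, both after 3 injections, in summed TPM and in summed estimated counts, on a log2 axis, for 7 classes of transcripts by their mean TPM in the 3 other libraries. The TPM ratio is 3.04, 3.71 and 2.66 in the 3 lowest classes and 0.822 in the highest.

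The same order held in estimated counts, which do not use effective length. Their ratio was 2.32, 3.04 and 2.14 in the 3 lowest classes, and 0.752 for transcripts at 100 TPM or more. From 0.1 TPM upward it also held for transcripts of 1000 bases or more. Shorter ones followed it apart from a ratio of 0.889 from 5 to 10 TPM and 0.908 from 10 to 100 TPM. In the class from 0.1 to 1 TPM the TPM ratio was 2.75 for the shorter and 2.50 for the longer transcripts. From 0.1 TPM upward the order was the same among transcripts with whole estimates, those whose estimated counts in both libraries lay within 1e-06 of a whole number, so that few of their reads had to be shared with near-identical transcripts. Their ratio was 3.12 from 0.1 to 1 TPM, and at 100 TPM or more it was 0.664. In the class from 0.1 to 1 TPM, 120511 transcripts were listed with cisplatin alone and 160997 with PRP.

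Transcripts grouped by the control ovary alone show where both libraries stood among the cisplatin-treated ovaries. Transcripts under 1 TPM in the control ovary held 5.23% of TPM there. They held 6.37% after 3 injections of cisplatin and 13.8% after 3 injections with PRP. After 5 injections they held 10.3%, and 8.09% with PRP added. Over this whole class the PRP ovary of the milder schedule was the highest of the cisplatin-treated ovaries, and the 5-injection ovary was nearer to it than to the 3-injection ovary. The control ovary is not ranked with them, since the choice of transcripts itself holds its share low. As a share of estimated counts the values were 4.66% in the control ovary, 4.55% after 3 injections (Wilson 95% interval 4.55 to 4.56) and 8.91% with PRP (8.90 to 8.92). They were 7.60% after 5 injections and 4.75% after 5 injections with PRP. These intervals hold counting error alone, and reads lacking molecular identifiers are not independent. The order differed among the 78834 transcripts at 0 in the control ovary. They held 2.53% of TPM after 3 injections and 4.41% with PRP, and 2.83% after 5 injections and 4.87% with PRP. There the PRP ovary of the 5-injection schedule was the highest, also in estimated counts, at 1.39% against 1.05% for that of the milder schedule.

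The abundant end showed the reverse. The 100 transcripts with the most TPM in each library carried 20.6% of TPM with cisplatin alone and 16.7% with PRP. The other values were 25.8% in the control ovary, 19.0% after 5 injections and 21.6% after 5 injections with PRP, so the PRP ovary of the milder schedule had the least concentrated transcriptome of the 5 by this measure. By another measure, 829 transcripts were enough to reach 50% of all TPM with cisplatin alone and 1446 were needed with PRP. That number was 735 in the control ovary, 1147 after 5 injections and 573 after 5 injections with PRP. The lists of the 100 most abundant transcripts in the 2 compared libraries shared 68 members. Of the 132 transcripts in either list, 14 were higher and 20 lower with PRP, and the median difference was -0.33, beside 15.2% higher, 12.7% lower and a median of 0.077 over all transcripts compared. Of these 132, 105 were shorter than 1000 bases and 1 had whole estimates. Nearly all thus had some reads divided among transcripts in at least 1 of the 2 libraries. The share of reads divided was not measured.

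Many transcripts were listed in 1 of the 2 libraries. The PRP library alone listed 86640, which held 434108 estimated counts or 1.43% of its total (Wilson 95% interval 1.42 to 1.43). The library with cisplatin alone listed 20086 that the PRP library did not, with 277182 estimated counts or 0.902% of its total (0.898 to 0.905). Most were at the limit of detection, since 82079 of the former and 18344 of the latter had fewer than 10 counts. Among those that reached 5 TPM the balance was the other way, with 292 listed in the PRP library only and 466 with cisplatin alone only. Of the 466, 255 also reached 5 TPM in the control ovary, and of the 292 the number was 95. Just 8 in each direction had whole estimates, so for the rest a listing in 1 library can also come from reads given to a near-identical transcript.

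Large differences lay almost wholly among divided estimates. At 8-fold or more, 388 transcripts (1.82%) were higher with PRP and 578 (2.71%) were lower. Of these 966 transcripts, 939 had divided estimates. Among the 3795 transcripts with whole estimates, 16 (0.422%) were at least 8-fold higher and 11 (0.29%) lower. At 2-fold, 644 of the 3795 (17%) were higher and 221 (5.82%) lower, so the excess of higher transcripts was greater here than among the 17564 divided ones, of which 2596 were higher and 2494 lower. This excess lay among transcripts that were scarce by the mean of the 2 libraries. Sorting by the values compared, with 5 TPM required of the larger one, itself favours large differences at low means. With a mean of the 2 libraries under 10 TPM, 533 of 1807 transcripts with whole estimates were higher and 110 lower, and from 10 to 100 TPM 106 of 1937 were higher and 104 lower. At 100 TPM or more, 5 of 51 were higher and 7 lower. Over all transcripts compared the balance moved in the same order. Under 10 TPM, 22.3% were higher and 14.8% lower. From 10 to 100 TPM the shares were 9.35% and 10.4%, and at 100 TPM or more 8.86% and 15.4%.

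**Figure D2:**
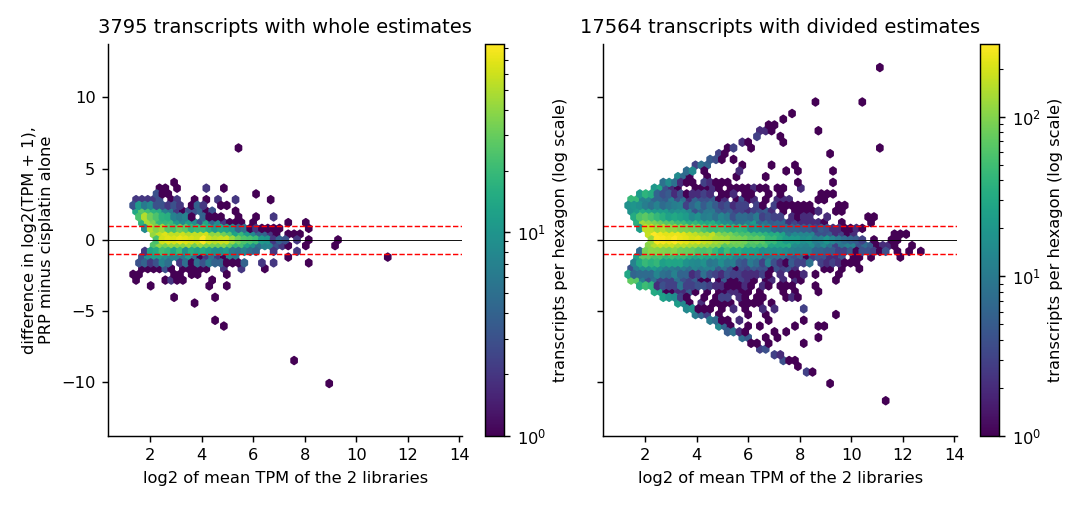
Difference in log2(TPM + 1), PRP minus cisplatin alone, against the log2 of the mean TPM of the 2 libraries, for 3795 transcripts with whole and 17564 with divided estimates. Colour gives the number of transcripts per hexagon and dashed lines mark 2-fold; whole estimates lie mostly within 8-fold, and the 939 divided ones beyond it spread to all levels.

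The direction also varied with transcript length. Of transcripts of 8000 bases or more, 159 of 828 (19.2%) were higher with PRP and 14 (1.69%) lower, the median difference being 0.47. From 4000 to under 8000 bases 11.9% of 3754 were higher and 3.73% lower, and the median was 0.24. From 2000 to under 4000 bases the shares were 10.1% and 4.95% of 4521. From 1000 to under 2000 bases they were 14.4% and 11.1% of 3322, with a median of 0.022. From 500 to under 1000 bases 19.5% of 4011 were higher and 18.9% lower, and the median was -0.068. The shortest class leaned the other way, with 18.6% higher and 24.6% lower of the 4923 from 300 to under 500 bases and a median of -0.18. Among transcripts with whole estimates the share higher was instead largest in the shortest class, at 42% of 398. At 8000 bases or more it was 5.19% of 77, with 1.3% lower and a median of 0.36.

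Level and length were partly separate. At 4000 bases or more the median difference was 0.37 under 10 TPM, 0.23 from 10 to 100 TPM and 0.29 for the 43 transcripts at 100 TPM or more, so long transcripts leaned toward PRP at each level. Median-of-ratios scaling over all transcripts listed in both libraries turned the median of this length class to -0.76, and on the 5 TPM set it was 0.20. Among transcripts under 500 bases the median was -0.094 under 10 TPM, -0.20 from 10 to 100 TPM and -0.28 at 100 TPM or more. The short class turned with the kind of estimate. Of the 398 with whole estimates, 42% were higher and 7.29% lower, and the median was 0.71. The fragments were shorter with cisplatin alone, and a common effective length for both libraries gave a median of -0.24 for this class and 0.36 at 4000 bases or more.

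**Figure D3:**
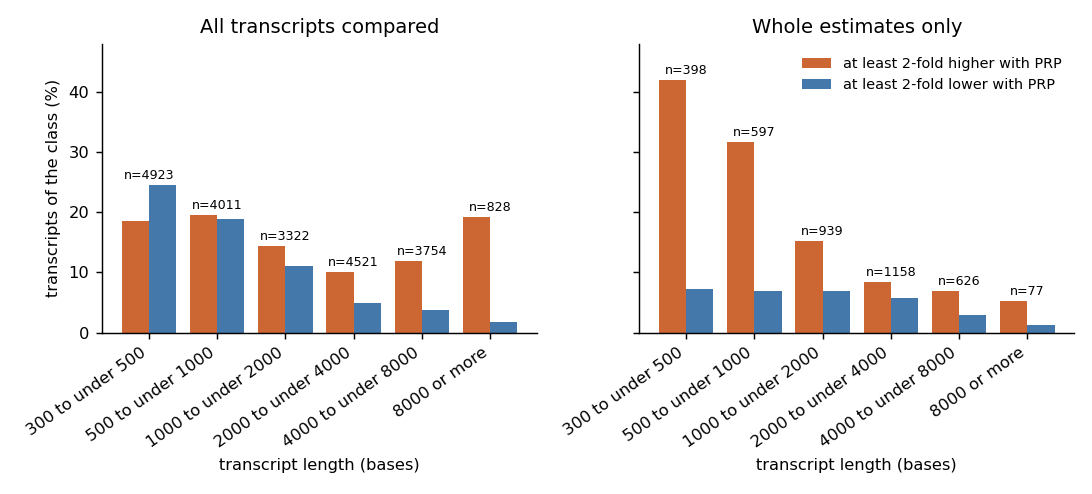
Share of transcripts at least 2-fold higher (orange) or lower (blue) with PRP than with cisplatin alone, in 6 length classes, for all transcripts compared and for whole estimates; n is the number in the class. Among all transcripts the longest class has 19.2% higher and 1.69% lower, and the shortest 18.6% and 24.6%. Among whole estimates the longest class has 5.19% higher and 1.3% lower, and the shortest 42% and 7.29%.

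For each transcript, the 3 libraries outside the contrast gave a range against which both values were placed. Of the 3240 transcripts higher with PRP, the PRP value lay above this range in 2415 (74.5%), and the value with cisplatin alone lay below it in 864 (26.7%). Over all transcripts compared these shares were 44.7% and 9.65%. In 1685 of the 3240 the PRP value was above the range while that of cisplatin alone was within it. In 302 the value with cisplatin alone was below the range while that of PRP was within it. Over all 21359 transcripts compared these numbers were 4392 and 743, a balance much like that of the higher transcripts. For either library, values above the range were more common than values below it. The filter of 5 TPM was asked of the compared libraries and not of the 3 outside the contrast, which itself favours this. The choice of the higher transcripts itself favours a high PRP value and a low value with cisplatin alone.

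Of the 2715 lower transcripts, the PRP value lay below the range in 1347 (49.6%), against 12.6% of all transcripts compared. The value with cisplatin alone lay above the range in 1297 (47.8%), against 34.9%. In 716 only the PRP value was outside, below the range, and in 691 only the value with cisplatin alone was outside, above it. Over all transcripts compared these numbers were 1350 and 2279. The choice of the lower transcripts itself favours a low PRP value and a high value with cisplatin alone, so nothing is concluded from this contrast. Median levels of the higher transcripts were 4.05 TPM in the control ovary, 5.76 TPM after 5 injections and 2.01 TPM after 5 injections with PRP. Those of the lower transcripts were 9.88, 9.51 and 6.89 TPM in the same order. In both sets the control and 5-injection medians lay between those of the 2 compared libraries, a place that the choice of the sets itself favours. After 5 injections with PRP the median of the higher transcripts lay below both. That library also had the lowest median over all transcripts compared, at 7.15 TPM, the others lying between 9.73 and 11.3 TPM.

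**Figure D4:**
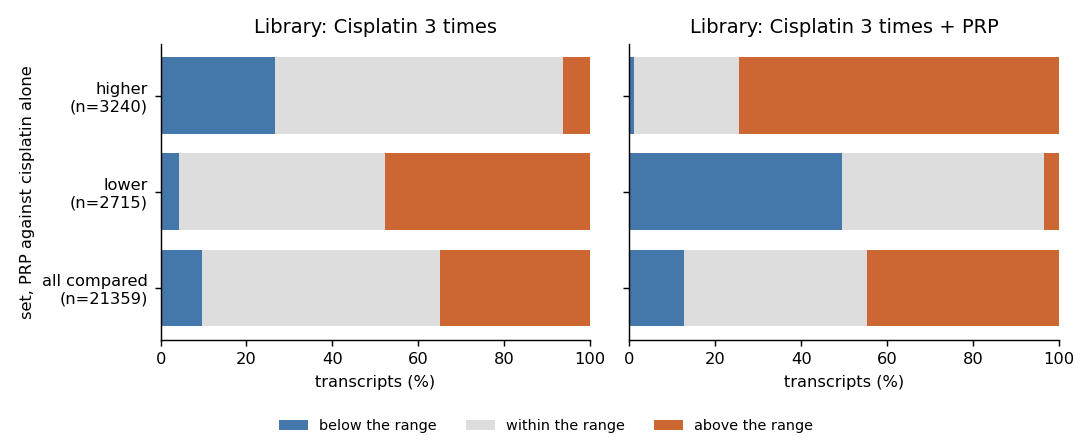
Share of transcripts whose value with cisplatin alone (left) or with PRP (right), both after 3 injections, lay below, within or above the range of the 3 other libraries. For transcripts higher with PRP, the PRP value is above the range in 74.5% and the value with cisplatin alone below it in 26.7%.

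PRP was also given after 5 injections, in a comparison that shares no library with this one. There 2034 of 20458 transcripts (9.94%) were higher with PRP and 6467 (31.6%) lower. Among transcripts with whole estimates the shares were 2.39% and 28.5% of 3638. Requiring 5 TPM in a 5-injection library would favour transcripts high in 1 of them: of 310 transcripts higher with PRP after 3 injections that passed with whole estimates in all 4 libraries, 220 passed through the 5-injection library alone. The transcripts were therefore followed without that filter, a choice made after seeing the data. Of the 3240 transcripts higher with PRP after 3 injections, 262 (8.09%) were higher and 1679 (51.8%) lower with PRP after 5, against 7.51% and 29.3% of all 21359. That background is not matched for level. With the filter, and a mean of both 5-injection libraries under 10 TPM, 65.6% of the higher transcripts were lower after 5 injections, against 42.7% of all. From 10 to 100 TPM these shares were 45.6% and 22.6%, and at 100 TPM or more 26.1% and 14.2%. Of the 1992 higher transcripts that passed the filter, 1028 passed through the 5-injection library alone and 175 through its PRP library alone. Over all transcripts compared after 3 injections these numbers were 5052 and 852 of 17940. Both the filter and sorting by the values compared thus bear on these shares, so nothing is concluded from these classes. Without the filter, 527 (19.4%) of the 2715 lower transcripts were higher and 869 (32%) lower after 5 injections. Among the 592 higher transcripts with whole estimates in all 4 libraries, 15 (2.53%) were higher and 400 (67.6%) lower after 5 injections, against 1.88% and 26.8% of 3410. Among the 194 lower ones, 6 (3.09%) were higher and 51 (26.3%) lower. For the lower transcripts the share of opposite differences was thus above the background over all estimates, while among whole estimates both shares were near it. These sets were chosen by 1 comparison and read in the other, and the difference between schedules was not tested.

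Among the 2367 transcripts of 1000 bases or more with whole estimates in all 5 libraries, 251 were higher with PRP, 123 were lower, and the median difference was 0.10. Of the 3795 with whole estimates in the 2 libraries, shorter ones included, 17% were higher and 5.82% lower. By length these shares were 15.3% and 6.92% from 1000 to under 2000 bases and 8.38% and 5.79% from 2000 to under 4000 bases. At 4000 bases or more they were 6.69% and 2.7%. From the 2367 transcripts, 4 were chosen for the largest difference in log2(TPM + 1) or in TPM in each direction. Their levels in all 5 ovaries are given with exact Poisson 95% intervals. The gene of each is not known here.

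The largest difference upward in log2(TPM + 1) was in transcript_445158, of 3343 bases. Its level was 0.324 TPM with cisplatin alone (0.212 to 0.475) from 26 estimated counts, and 15.8 TPM with PRP (14.9 to 16.7) from 1143. It was at 0.353 TPM in the control ovary, 1.34 TPM after 5 injections and 1.01 TPM after 5 injections with PRP. The PRP ovary of the milder schedule thus stood alone, 48.8-fold above cisplatin alone (counting interval 33.1 to 75).

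The largest TPM difference upward was in transcript_351848, of 2856 bases. It was at 28.8 TPM with cisplatin alone (27.5 to 30.1) and 184.5 TPM with PRP (181 to 188), a 6.41-fold difference (6.11 to 6.73). Its level was 57.2 TPM in the control ovary, 55.8 TPM after 5 injections and 34.98 TPM after 5 injections with PRP. Cisplatin alone was the lowest of the 5 and PRP after it the highest.

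The largest difference downward was in transcript_236902, of 1196 bases. It was at 58.3 TPM with cisplatin alone (55.3 to 61.3) from 1496 estimated counts and had 0 counts with PRP. Its level with cisplatin alone was 439.9-fold above a floor of 3 counts in the PRP library, a value that leaves out counting error. The Poisson interval with PRP reached up to 0.163 TPM. Its level was 97.1 TPM in the control ovary, 52.7 TPM after 5 injections and 27.1 TPM after 5 injections with PRP, so the PRP ovary of the milder schedule was the only one of the 5 without it. A whole estimate of 0 can also arise when a near-identical transcript takes all reads.

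The largest TPM difference downward was in transcript_59770, of 1957 bases, which missed the 2-fold limit. It was at 280.8 TPM with cisplatin alone (276 to 286) and 145 TPM with PRP (142 to 149), 1.93-fold lower (1.87 to 1.99). Its level was 199.8 TPM in the control ovary, 149 TPM after 5 injections and 305 TPM after 5 injections with PRP. The 3-injection ovary and the 5-injection ovary with PRP, which were both high, were also the libraries with the shorter fragments, at 186 and 194 bases, and the part of this in its levels was not tested.

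**Figure D5:**
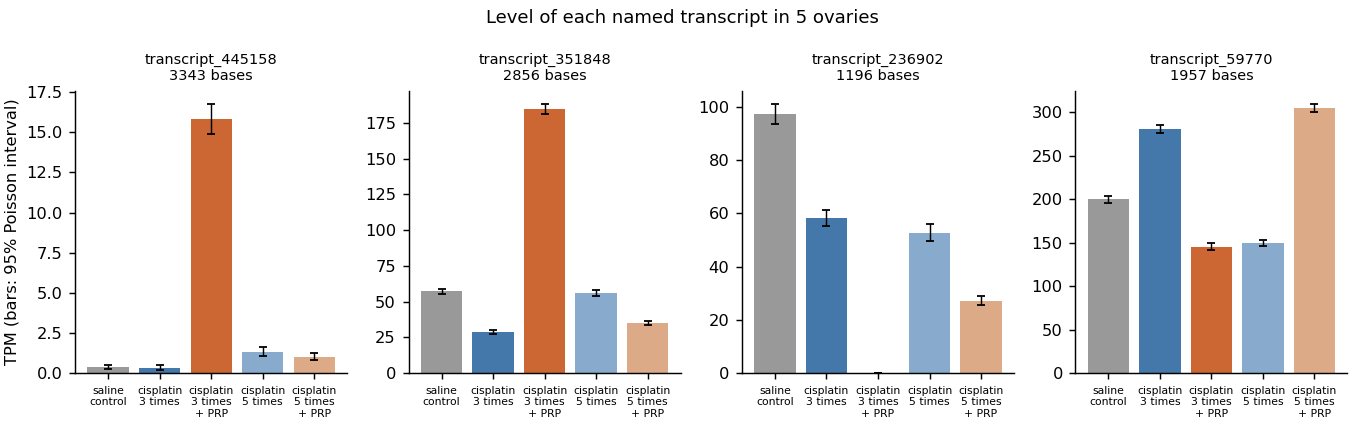
TPM of 4 transcripts in 5 single ovaries, with exact Poisson 95% intervals of counting error as error bars. The first and second panels show the PRP ovary of the milder schedule at 15.8 and 184.5 TPM, above the 4 others, and the third shows it at 0.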

How the data were processed

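RNA of 5 rat ovaries, 1 per group, was sequenced after column extraction and a stranded library kit, per the labels' protocols. Tools listed in the submitters' processing notes are fastp, FastQC, MultiQC and HISAT2, without versions. The quantifying program, its transcript annotation and the build are not given in the sources. Per the file headers, the authors deposited for each transcript its length, effective length, estimated count and TPM. Estimated counts were divided by 1000 where the ratio of TPM to estimated count per effective length was under 0.01 of the library median, for 4 transcripts with cisplatin alone and 5 with PRP. The deposited TPM column was over 100 times too large for 71 and 61 transcripts, so TPM was recomputed from counts and effective lengths. Unlisted transcripts were taken as 0. Fragment length is the median gap between length and effective length for transcripts above 5000 bases.

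The members, transcript classes and rule for naming transcripts were chosen with earlier results of these data known. The classes by level in other libraries were added after the level dependence had been seen. Named transcripts were those of 1000 bases or more, with whole estimates in all 5 libraries and 5 TPM in either compared library, that had the largest log2(TPM + 1) or TPM difference in each direction. The calling step was tested on simulated data. Scripts ran in Python 3.11.15 with pandas 2.3.3, numpy 2.4.6 and scipy 1.17.1. Alternatives covered the pseudocount, filter, scaling, effective length, fold limit and subsets of transcripts.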

Additional observations from a re-analysis of the deposited data

Results flagged for a closer look

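Some differences with PRP had opposite signs after 3 and after 5 injections. None was tested, since each schedule has 1 library per group. The median log2 difference over all transcripts compared was 0.077 after 3 injections and -0.48 after 5, 0.56 apart. The value after 3 injections is near 0 and turned negative in 4 settings, to between -0.997 and -0.0010, so this opposition of signs depends on the processing. By length, the medians were 0.20 apart from 1000 to under 2000 bases, 0.50 apart from 2000 to under 4000 bases and 0.96 apart from 4000 to under 8000 bases. At 8000 bases or more they were 0.47 and -0.998, 1.46 apart, the widest of the length classes. Median-of-ratios scaling over all transcripts listed in both libraries turned the 3-injection median at 4000 bases or more to -0.76.

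Of the named transcripts, transcript_445158 differed by 3.67 after 3 injections and -0.22 after 5, 3.88 apart. For transcript_351848 the values were 2.64 and -0.66, 3.30 apart. For transcript_59770 they were -0.95 and 1.02, so the former minus the latter was -1.97. In both schedules the library with PRP and its partner differed in fragment length, in opposite directions, and the part of this in the opposite signs was not tested.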

How the results depend on the processing

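Leaving out a replicate was not possible with 1 library per group. A paired analysis was not possible for the same reason. The 3240 higher and 2715 lower transcripts became 1611 and 1754 with a pseudocount of 5, and 881 and 1110 with a filter of 20 TPM. Both without a filter and at 1 TPM they were 17013 and 4668, alike because a 2-fold difference on this scale needs 1 TPM. Median-of-ratios scaling gave 872 and 10972, whole estimates 644 and 221, a 4-fold limit 1037 and 1073, and a 1.5-fold limit 5424 and 4484. Transcripts of 500 bases or more included 1506 lower ones.

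The median difference of 0.077 became 0.32 without a filter, 0.56 at 1 TPM and -0.028 at 20 TPM. It was -0.997 with median-of-ratios scaling, -0.024 with that scaling on transcripts of 5 TPM, a setting chosen after seeing the data, and -0.0010 with totals that leave out the 100 most abundant transcripts of either library. At 4000 bases or more the median of 0.29 turned only with median-of-ratios scaling, to -0.76. Under 500 bases the median of -0.18 was 0.36 without a filter, 0.77 at 1 TPM, 0.71 among whole estimates, -1.29 and -0.29 with the 2 median-of-ratios scalings, and -0.51 with CPM. Apart from the filters and the 2 median-of-ratios scalings, whose construction sets which transcripts count, the cause was not tested. The 4 named transcripts kept their direction in every setting that held them. Counts limit the precision: of the 3240 higher ones, 2737 had 50 counts in at least 1 of the 2 libraries, and of the 2715 lower ones 2307.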

Other observations

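Transcripts with consecutive running numbers were compared by direction. Of 6948 such pairs in which both transcripts were compared, both members were 2-fold apart or more in 553. Both were higher with PRP in 289 pairs, both were lower in 121, and they went opposite ways in 143, so 74.1% took the same direction. Of all transcripts counted 54.4% were higher. Among whole estimates the numbers were 38, 5 and 10 of 53 pairs, or 81.1% in the same direction, and 74.5% of those counted were higher. Such an imbalance by itself makes pairs alike to some degree. Over all estimates it was slight, at 54.4% higher, and its part in the 74.1% was not computed. The sources do not say what the order of the numbers stands for.

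The limits of 5 TPM and 2-fold cut through a continuous range. Of 2929 transcripts whose larger value lay between 4 and 5 TPM, 27.7% were at least 2-fold higher and 10.8% lower with PRP. Of 2279 between 5 and 6 TPM the shares were 23.3% and 12.2%. Differences from 0.9 to 1 in log2(TPM + 1) were held by 423 transcripts upward and 307 downward, and those from 1 to 1.1 by 365 and 290.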
